A study of Homo sapiens with 12 samples.

Results

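SW480 cells carrying a USP51 overexpression construct were compared with SW480 cells carrying a control vector. SW480 is an established human colorectal adenocarcinoma cell line. The comparison covers the genes with at least 1 TPM (a level scaled to transcript length and to the library total) in at least 1 of the 2 SW480 groups, which were 12176 of the 17818 genes in the table. Just inside that limit lay DUSP18 at 1 TPM and CCDC170 at 1.003 TPM, and just outside it lay GNG3 and PSCA at 0.997 TPM each. The control group is labelled with the genotype NC and the treatment Vector, and the other group with USP51-OE for both. All cells grew in DMEM with serum, without further treatment, and HCT116, a second colorectal cancer line with the same pair of groups, serves below only to show where SW480 differs. The labels list 3 libraries for each of the 4 groups. They do not state the promoter of the construct, whether a group is 1 clone or a mixed population, or whether its libraries came from separate cultures.

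Every value below is an authors' mean of a group. The columns of the single libraries carry codes that match no label and were not used, so no difference could be set against the spread between replicates, and no standard deviation, n or p-value is given. The letters C and E in the names of the means are not defined by the labels and were read as control and USP51, and every direction rests on that reading. A gene is called higher or lower where log2((USP51 TPM + 1) / (control TPM + 1)) reached 1.5-fold, a threshold on size that tests nothing. Ratios given with a range in parentheses are ratios of counts per total count with a 95% counting interval, which covers counting error only. The interval takes each group mean as the count of a single library. It is therefore wider than the counts of 3 libraries together would give. The mean total count was 15625249 in controls and 15920306 with USP51. Of 12 colon epithelial markers 7 reached 1 TPM, among them EPCAM at 381.7 TPM (controls) and 402.1 TPM (USP51) and the intestinal factor CDX2 at 29.1 and 25.1 TPM, while KRT20, CDX1, CDH17, LGALS4 and GPA33 lay at or near 0. Markers of other cell types were low: 2 of 10 fibroblast, 2 of 10 leukocyte and 0 of 6 endothelial markers reached 1 TPM, and PTPRC was listed at 0. The summed level of these markers was 10.4 and 7.96 TPM for fibroblasts, 6.85 and 7.75 TPM for leukocytes and 0.343 and 0.230 TPM for endothelium, in controls and with USP51.

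USP51 belongs to the ubiquitin-specific proteases, enzymes that cut ubiquitin from proteins, and is known to act on histone H2A at sites of DNA damage and, with USP22 and USP27X, on histone H2B. Histone ubiquitin is written and erased by opposing enzymes, and its balance bears on transcription and on the repair of double-strand breaks. NF-kB factors, which drive many chemokine and cytokine genes, bind motifs near the start sites of those genes. Genes of late cell division are known for a different promoter element, the CHR, often with CCAAT boxes upstream.

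The promoter sequences of the inflammatory genes that were at least 1.5-fold lower with USP51 are shown first, for the 5 of them in which the motif below was found. BIRC3 and LTB come from a list of NF-kB targets, so a match in them is no independent result, and CCL2, SAA1 and SAA2 have no entry in the promoter table. The windows come from the RefSeq promoter table of GRCh38.p14, which covers 250 bases before to 50 bases after a gene's start, and are written 5′ to 3′ on the gene's strand. Capitals mark the match to the NF-kB motif GGNNTTTCC or to its reverse complement. Both strands were searched, no pattern searched here contains another, and the genes and motifs were picked after the expression values had been seen. CXCL1 (chr4:73869315-73869373, plus strand), CXCL2 (chr4:74099215-74099273, minus strand), CXCL8 (chr4:73740453-73740511, plus strand), BIRC3 (chr11:102317260-102317318, plus strand) and LTB (chr6:31582478-31582536, minus strand) read as follows.
CXCL1: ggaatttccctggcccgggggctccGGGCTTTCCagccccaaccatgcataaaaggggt
CXCL2: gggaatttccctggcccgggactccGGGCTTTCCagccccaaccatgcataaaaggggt
CXCL8: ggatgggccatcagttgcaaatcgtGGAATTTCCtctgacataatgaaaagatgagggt
BIRC3: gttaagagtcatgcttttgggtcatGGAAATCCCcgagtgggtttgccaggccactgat
LTB: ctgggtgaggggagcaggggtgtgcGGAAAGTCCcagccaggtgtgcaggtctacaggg
With the start site counted as 0, the match began at -53 in CXCL1 and CXCL2, -86 in LTB, -91 in CXCL8 and -199 in BIRC3. CXCL1 and CXCL2 held 2 matches each. Of the 6 such lower genes with an entry, 5 held the motif and CXCL14 did not. The motif stood in 6.26% of all 27305 promoters and in 6.58% of those of genes measured in SW480. The windows of CXCL1 and CXCL2 are nearly the same, and the genes were picked with values seen. These shares are therefore a description. Over all measured chemokine, cytokine and acute phase genes with an entry, 9 of 18 held it. A match describes these letters and shows no binding.

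Windows of cell division genes follow, since all measured members of that list lay below control. Capitals mark the CHR motif TTTGAA in CCNB2 (chr15:59105092-59105147, plus strand), PLK1 (chr16:23678835-23678890, plus strand), MKI67 (chr10:128126422-128126477, minus strand), CDC20 (chr1:43358891-43358946, plus strand) and KIF23 (chr15:69414269-69414324, plus strand).
CCNB2: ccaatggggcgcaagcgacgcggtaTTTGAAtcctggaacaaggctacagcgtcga
PLK1: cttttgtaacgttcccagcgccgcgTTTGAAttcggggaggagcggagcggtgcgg
MKI67: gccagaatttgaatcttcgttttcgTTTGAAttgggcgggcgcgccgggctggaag
CDC20: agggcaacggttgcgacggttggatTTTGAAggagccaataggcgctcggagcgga
KIF23: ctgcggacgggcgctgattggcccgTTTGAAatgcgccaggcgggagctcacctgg
The match began at -29 in CCNB2, PLK1 and MKI67, at -55 in KIF23 and at -65 in CDC20. Of 26 members with an entry, 18 held TTTGAA, against 15.4% of all promoters and 9.41% of those of genes measured in SW480. CCAAT was held by 21, against 35.7% and 36.7%. The hypoxia response core ACGTG was found near the start of CA9 (chr9:35673885-35673939, plus strand), the hypoxia target with the largest ratio, where the capitals are its reverse complement.
CA9: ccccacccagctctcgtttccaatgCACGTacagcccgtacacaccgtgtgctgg
The match began at -18. ACGTG stood in 10 of 20 hypoxia target promoters, in 21.6% of all promoters and in 26.8% of those of genes measured in SW480. It was not found in the windows of EGLN3 and PDK1.

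USP51 itself was raised as labelled. Its control mean was 0.513 TPM and its mean with the construct 25.7 TPM. Per total count the ratio was 51.3 (34.3 to 83.5). The gene lies on chromosome X from 55484616 to 55489848, and the sequence of the construct was not analysed here. The related enzymes USP22, at 70.7 and 66.4 TPM, and USP27X, at 3.25 and 3.29 TPM, stayed within 1.5-fold.

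Few genes differed by 1.5-fold. With USP51, 65 genes (0.534% of those measured) were higher and 107 (0.879%) were lower, and 98.6% lay within 1.5-fold. The counting interval excluded 1 for 58 of the higher and 91 of the lower genes. In CPM (counts scaled to the library total) without scaling factors the split was 97 higher and 97 lower, so the excess of lower genes holds on the TPM scale. The whole distribution lay slightly low, with a median log2 ratio of -0.04 in TPM and 0.00 in CPM. In TPM 61.1% of genes were below control and 38.8% above it. Counts of list members below or above control are to be read beside these shares.

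The lower genes were not spread evenly over the chromosomes. On chromosome 3, 608 of 674 genes (90.2%) lay below control, with a median log2 ratio of -0.28, a 0.826-fold level. The 11502 genes elsewhere had a median of -0.03, with 59.4% below control. Of the chromosome 3 genes, 26 (3.86%) were at least 1.5-fold lower and 2 (0.297%) higher, against 81 (0.704%) lower among genes on other chromosomes. Chromosome 3 held 5.54% of the measured genes and 24.3% of the lower ones. The shift covers genes of unrelated function and is shared by neighbours: of 18 windows of 10 Mb with at least 10 genes on chromosome 3, 15 had a median beyond 0.2 in size, against 0 of 267 on other chromosomes. In HCT116 the chromosome 3 median was 0.04, and 0 of 283 windows passed that limit.

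**Figure D1:**
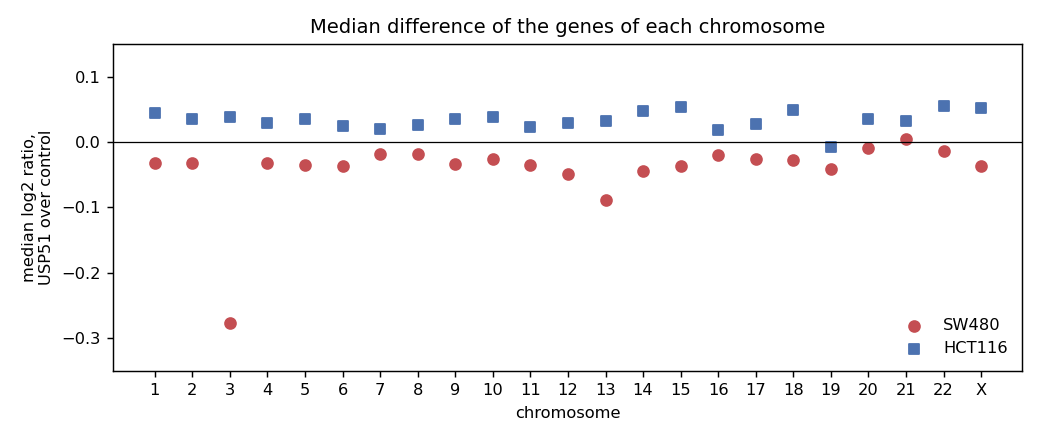
Median log2 ratio of USP51 over control (vertical axis) for the genes of each chromosome (horizontal axis), with SW480 as circles and HCT116 as squares. Chromosome 3 in SW480 lies at -0.28, and every other chromosome of both lines lies within 0.1 of 0.

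Along chromosome 3 the genes fell into 3 stretches, placed where 2 change points best divided their log2 ratios. The first, from TRNT1 at 3126940 to SLC4A7 at 27484384, held 81 genes with a median of -0.02, of which 46 lay below control and 0 were 1.5-fold lower. VHL, the substrate receptor for HIF subunits, lies there and was at 8.75 and 9.63 TPM. The second, from CMC1 at 28241619 to RYK at 134250859, held 392 genes with a median of -0.26 (0.836-fold), 368 of them below control and 11 at least 1.5-fold lower. The third, from AMOTL2 at 134355345 to LMLN at 198043720, held 201 genes with a median of -0.41 (0.755-fold), 194 of them below control and 15 at least 1.5-fold lower. In HCT116 the same 3 stretches had medians of 0.05, 0.04 and 0.04. The stretches were drawn from these values, so their medians are a description. The files hold RNA alone, so the DNA of chromosome 3 was not measured, and a mean does not show whether all libraries of a group share the shift.

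**Figure D2:**
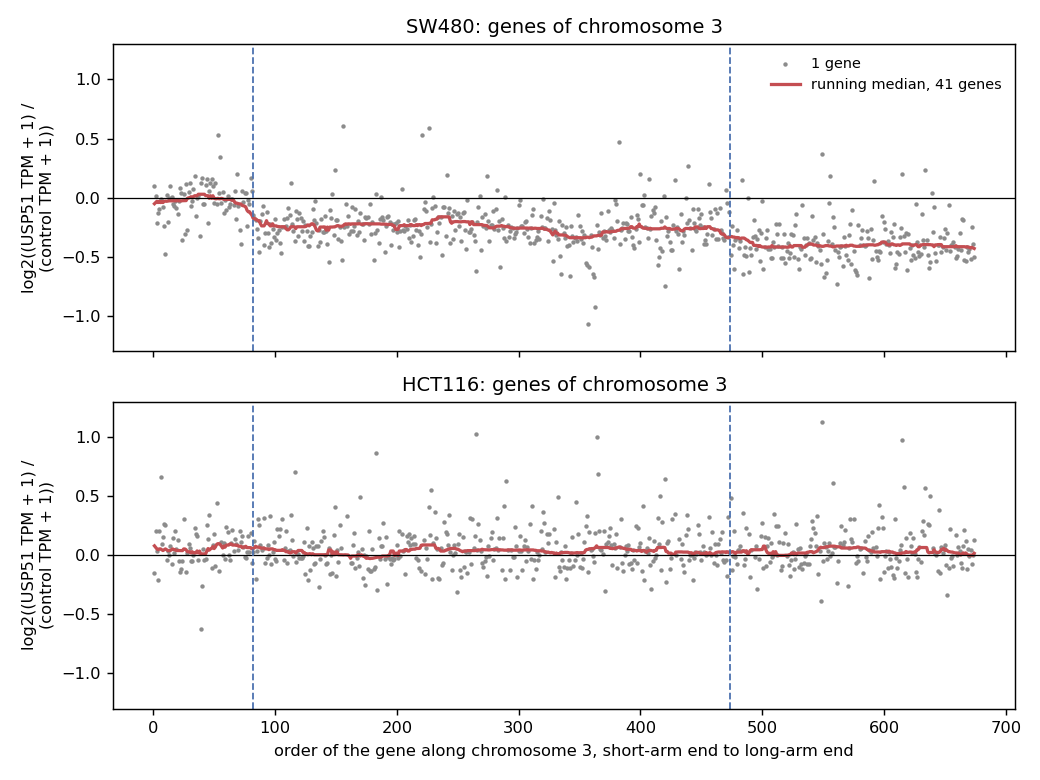
Log2 ratio of USP51 over control (vertical axis) for each gene of chromosome 3 in its order along the chromosome (horizontal axis), in SW480 above and HCT116 below. Grey points are genes, the red line is the running median of 41 genes, and dashed lines bound the 3 stretches, whose SW480 medians were -0.02, -0.26 and -0.41.

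Several well-known genes of chromosome 3 carried that difference. CTNNB1, the gene of beta-catenin, stood at 392.1 TPM in control cells against 304.5 TPM after overexpression (ratio 0.802, 0.782 to 0.823), and WNT5A, a non-canonical WNT ligand, at 49.9 and 32.8 TPM. PSMD2, a proteasome base subunit, was at 358.6 and 243.3 TPM (ratio 0.6997, 0.679 to 0.721), and PSMD6 at 217 and 173 TPM. The condensin subunit gene SMC4 was at 132.0 and 84.4 TPM, ECT2, a cytokinesis exchange factor, at 82.7 and 52.1 TPM, and USP13, another ubiquitin-specific protease, at 14.6 and 8.79 TPM. All of these lay below control, and WNT5A, SMC4, ECT2 and USP13 passed 1.5-fold. Summed over curated transcripts only, USP13 had a log2 ratio of -0.46 in place of -0.68, and WNT5A one of -0.57 in place of -0.59, both within 1.5-fold. In CPM these were -0.55 and -0.57. Among highly expressed genes, the ribosomal protein genes RPL24 (2078 and 1594 TPM) and RPSA (2713 and 2393 TPM) were among the 10 genes with the largest TPM difference below control. The Hippo pathway genes WWTR1 (28.6 and 19.2 TPM), which encodes the coactivator TAZ, and AMOTL2 (71.3 and 50.6 TPM), which encodes a binding partner of YAP, lie in the third stretch.

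A short run inside the second stretch lay lower than its surroundings. The 7 measured genes from ALCAM to NECTIN3 had a median of -0.65, and 5 of them were at least 1.5-fold lower, a run picked out after its values were seen. ALCAM, an adhesion molecule used as a stem cell marker (chr3:105366909-105576900), was at 3.35 and 1.07 TPM (ratio 0.325, 0.230 to 0.447). NECTIN3, a junction adhesion gene (chr3:111071816-111194170), was at 2.39 and 0.780 TPM (ratio 0.326, 0.240 to 0.432). Between them, CIP2A, an inhibitor of protein phosphatase 2A, was at 18.3 and 11.3 TPM, DZIP3, a ubiquitin ligase gene, at 5.01 and 2.78 TPM and BBX at 14.2 and 9.08 TPM, while CD47 (10.8 and 8.47 TPM) and IFT57 (12.6 and 9.23 TPM) stayed within 1.5-fold. The genes of chromosome 3 that were higher by 1.5-fold were SEMA3F, a semaphorin gene, at 1.74 and 3.11 TPM and RTP3 at 7.42 and 11.8 TPM.

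Smaller shifts of neighbouring genes were seen on chromosome 13. Its 150 genes below 90 Mb had a median of -0.14, with 132 below control, and its 59 genes beyond that point a median of 0.06, with 18 below control. BRCA2 (7.06 and 5.32 TPM) and RB1 (49.5 and 37.6 TPM) lie in the first of these. The 29 genes in the first 10 Mb of chromosome 5 had a median of 0.14, with 3 below control.

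Genes of the enzymes that write and erase histone ubiquitin, the setting in which USP51 is known, were mostly within 1.5-fold. Of 23 measured, 16 lay below control, 1 was higher (USP51) and 0 were lower. These counts below control and lower are near the shares over all measured genes, 61.1% and 0.879%. RNF168, the ubiquitin ligase of H2A at breaks, was at 7.09 and 5.14 TPM, BAP1, a H2A deubiquitinase, at 66.5 and 53.04 TPM, and ATXN7, a subunit of the SAGA deubiquitinase module, at 7.66 and 6.19 TPM. These 3 genes are on chromosome 3, and the list's median of -0.08 was -0.06 without them. Double-strand break response genes had 26 of 27 members below control and 0 past 1.5-fold, with a median of -0.12 that was -0.11 without the 3 on chromosome 3 and -0.08 in FPKM. Those 3 are RNF168, FANCD2 (13.1 and 10.6 TPM) and ATR, the replication stress kinase, which differed most at 13.02 and 8.81 TPM (ratio 0.698, 0.636 to 0.767). Away from chromosome 3, BRCA1 was at 18.3 and 15.7 TPM, MRE11, a nuclease of the break sensor complex, at 13.8 and 11.7 TPM, and TP53BP1 at 8.33 and 6.94 TPM.

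**Figure D3:**
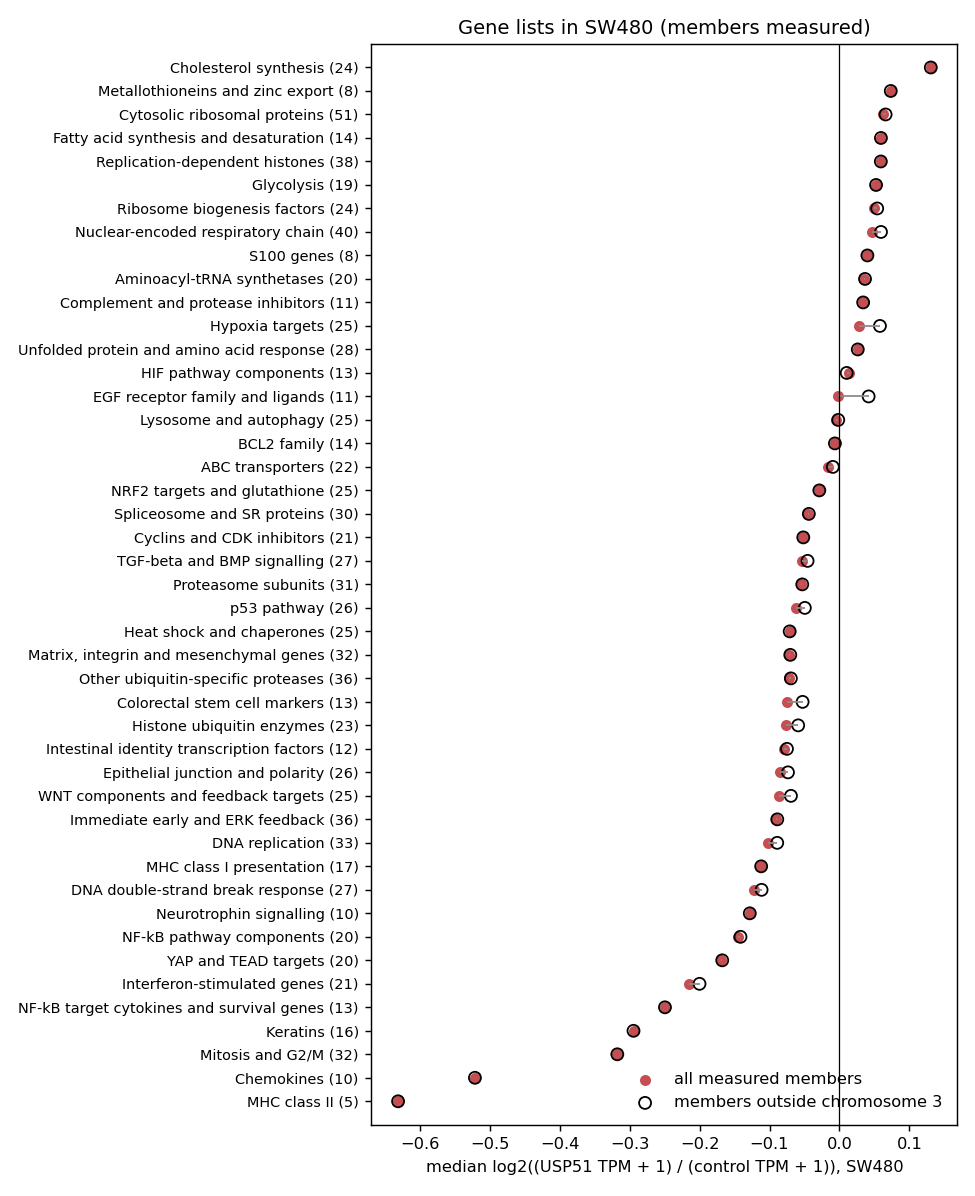
Median log2 ratio in SW480 (horizontal axis) of each gene list, marker lists left out, with at least 5 measured members (vertical axis, with the number measured); filled circles use all measured members and open circles those outside chromosome 3. MHC class II at -0.63, chemokines at -0.52 and mitosis and G2/M at -0.32 have no member on chromosome 3, and cholesterol synthesis lies at 0.13.

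Most chemokine genes lay below control with USP51, and none of those named in this paragraph lies on chromosome 3. Of 10 measured chemokine genes, 7 lay below control and 5 were at least 1.5-fold lower. Among all measured genes in TPM, 61.1% lay below control and 0.879% were at least 1.5-fold lower. The list median was -0.52 (-0.24 without a filter on low values). CCL2, a monocyte attractant, stood at 117.0 TPM in control cells and at 52.0 TPM after overexpression. The neutrophil attractants CXCL1 (50.1 and 29.4 TPM), CXCL8 (17.2 and 10.9 TPM) and CXCL2 (23.8 and 15.4 TPM), whose promoter windows are printed above, lay below control together, as did CXCL14 (12.4 and 7.64 TPM), whose promoter held no match. CXCL3 was at 15.7 and 11.3 TPM, within 1.5-fold. CX3CL1 (3.17 and 3.23 TPM) and CXCL16 (33.8 and 34.2 TPM) were almost equal in both groups. In CPM the log2 ratio of CXCL8 was -0.53, within 1.5-fold, against -0.62 in TPM, and in FPKM that of CXCL14 was -0.57 against -0.64.

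All 13 measured NF-kB target cytokine and survival genes lay below control, 2 of them by 1.5-fold, with a median of -0.25 (-0.16 with a pseudocount of 5 TPM). The lymphotoxin gene LTB was at 18.3 and 11.03 TPM (ratio 0.619, 0.455 to 0.845) and BIRC3, an inhibitor of apoptosis, at 7.42 and 4.30 TPM. With RLE factors the log2 ratio of LTB was -0.583, just within 1.5-fold. TNF (4.18 and 2.47 TPM), the adhesion receptor ICAM1 (97.1 and 64.9 TPM), the growth factor CSF2 (39.8 and 26.5 TPM) and IL32 (92.3 and 65.3 TPM) followed, each within 1.5-fold on this scale. The NF-kB subunits and inhibitors differed less: 17 of 20 lay below control, 0 passed 1.5-fold and the median was -0.14. Their largest ratio in size was that of NFKBIZ, an atypical inhibitor on chromosome 3, at 4.82 and 2.92 TPM, and the classical inhibitor NFKBIA was at 74.98 and 60.5 TPM.

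The serum amyloid genes gave one of the largest differences in transcript number. SAA1 was at 1352 and 623.5 TPM and SAA2 at 196.1 and 83.4 TPM. These acute phase genes are close paralogs whose reads may be exchanged, so they were also summed: together they were at 1548 and 706.9 TPM, a count ratio of 0.465 (0.441 to 0.490). The sum does not fix how the difference divides between them. SERPINA1, a protease inhibitor of the same response, was at 213 and 164 TPM. Complement and protease inhibitor genes as a list did not share this direction: 7 of 11 lay above control, 1 of them by 1.5-fold (SLPI) and 0 below by that size, with a median of 0.03. The complement gene C3 was at 7.08 and 5.80 TPM and the complement inhibitor CD55 at 9.61 and 12.3 TPM.

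Antigen presentation genes lay below control as well. All 5 measured MHC class II genes did, and 3 passed 1.5-fold, with a median of -0.63. The invariant chain gene CD74, the most abundant of them, was at 99.1 and 62.1 TPM (ratio 0.647, 0.592 to 0.707), HLA-DRA at 3.12 and 1.17 TPM and HLA-DRB1 at 1.91 and 0.877 TPM, where the ratio of 0.473 (0.185 to 1.08) has an interval that includes 1. HLA-DQB1 (18.2 and 15.3 TPM) and HLA-DMA (4.26 and 3.66 TPM) stayed within 1.5-fold. The class II median was -0.23 with a pseudocount of 5 TPM and -0.45 among genes with at least 5 TPM, and in CPM, where HLA-DRB1 was within 1.5-fold, it was -0.49. In the class I pathway 14 of 17 genes lay below control and 1 passed 1.5-fold, the immunoproteasome subunit PSMB9 at 30.3 and 18.1 TPM. Leukocytes also express class II genes. Of their 10 markers PTPRC was listed at 0, CD14 was at 1.18 and 2.25 TPM and CD68 at 4.19 and 3.98 TPM, and the list summed to 6.85 and 7.75 TPM; their part in the result was not tested. In bulk RNA, fewer cells expressing a gene and less RNA per cell cannot be told apart.

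**Figure D4:**
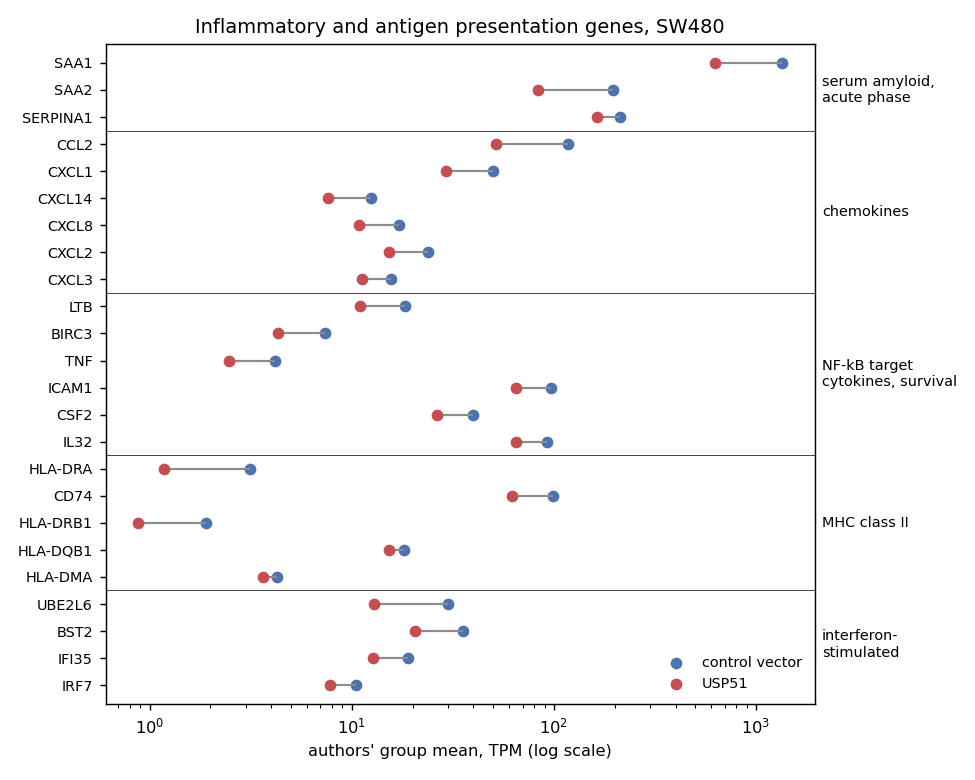
Authors' group means in TPM (horizontal axis, log scale) of inflammatory and antigen presentation genes in SW480, with control vector in blue and USP51 in red. Every gene shown lies lower with USP51, among them CCL2 (117.0 and 52.0 TPM) and HLA-DMA (4.26 and 3.66 TPM). For chemokines, NF-kB targets and interferon-stimulated genes, only the members with the lowest log2 ratios were drawn. The 3 of 10 chemokines and 4 of 21 interferon-stimulated genes above control were left out.

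Interferon-stimulated genes had 17 of 21 members below control and 2 past 1.5-fold, with a median of -0.21. The latter were UBE2L6, the conjugating enzyme for the ubiquitin-like protein ISG15, at 29.997 and 12.8 TPM (ratio 0.439, 0.354 to 0.539) and BST2, the virus-tethering protein tetherin, at 35.7 and 20.5 TPM. IFI35 (19.0 and 12.7 TPM) and IRF7, a regulator of interferon genes (10.6 and 7.77 TPM), lay below control within 1.5-fold.

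Cell division genes lay below control together and by a smaller margin. All 32 measured mitosis and G2/M genes did, 0 of them by 1.5-fold, and the counting interval excluded 1 for 31. Their median was -0.32, a 0.802-fold level, and none is on chromosome 3. HMMR, a spindle protein gene, was at 66.9 and 47.6 TPM, the topoisomerase TOP2A at 215 and 160 TPM, the spindle pole gene ASPM at 25.98 and 19.1 TPM, the proliferation marker MKI67 at 103 and 77.8 TPM and the kinase PLK1 at 166 and 128 TPM. Replication genes differed less, with 32 of 33 below control, 0 past 1.5-fold and a median of -0.10 (-0.06 in FPKM and in CPM). The largest log2 ratio in size among them was that of RFC4, a clamp loader subunit on chromosome 3, at 103 and 73.7 TPM, followed by the ribonucleotide reductase RRM2 on chromosome 2 at 332 and 267 TPM. Of the cyclins, CCND1 was at 671 and 553 TPM, below control, and CCND2 at 7.32 and 17.8 TPM, above it.

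Keratin and matrix genes lay mostly below control, as did 61.1% of all measured genes in TPM. Of the 16 measured members of the keratin list 12 lay below control, 2 by 1.5-fold, with a median of -0.29 (-0.16 with a pseudocount of 5 TPM and -0.15 without a filter on low values). Those 2 were KRT13 at 126 and 71.4 TPM (ratio 0.583, 0.542 to 0.629) and the hair keratin KRT81 at 20.4 and 13.1 TPM, which in CPM had a log2 ratio of -0.56, within 1.5-fold. Outside the list, the hair keratins KRT37 (1.34 and 0.433 TPM) and KRT31 (1.34 and 0.520 TPM) were also lower by 1.5-fold. KRT5, a basal keratin with a high level in these cells, was at 2871 and 2200 TPM. Of the simple epithelial keratins, KRT8 (4411 and 4756 TPM) and KRT18 (4727 and 4989 TPM) lay above control. KRT19, at 1421 and 1281 TPM, lay below it. Among matrix and integrin genes 25 of 32 lay below control and 0 passed 1.5-fold, with a median of -0.07 against -0.04 over all genes. LAMB3, a laminin chain, was at 34.9 and 24.1 TPM and COL6A1 in the opposite direction at 28.6 and 40.1 TPM. YAP and TEAD targets had 17 of 20 members below control and a median of -0.17 with or without the 2 on chromosome 3. ANKRD1, a target on chromosome 10, was at 147 and 110 TPM.

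WNT and stem cell genes showed how far chromosome 3 weighs on a short list. WNT components and feedback targets had a median of -0.09, which was -0.07 without WNT5A, CTNNB1 and GSK3B. Their 1 lower member was WNT5A. The feedback gene AXIN2, on chromosome 17, was at 297 and 246 TPM. Colorectal stem cell markers had a median of -0.08 and 1 lower member, ALCAM, and without the 3 members on chromosome 3 the median was -0.05 with 0 lower. CD44, a hyaluronan receptor, was at 111 and 113 TPM, a log2 ratio of 0.02 that was 0.30 with curated transcripts alone. ASCL2, a crypt base transcription factor, was at 41.4 and 48.4 TPM. The proteasome subunit list likewise had both of its largest differences, PSMD2 and PSMD6, on chromosome 3, with a median of -0.06. That list leaves out the immunoproteasome subunit PSMB9 on chromosome 6, whose log2 ratio of -0.72 was larger in size.

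The lower genes of largest ratio belonged to several other families. MAGEC2, a cancer-testis antigen gene, was at 13.4 and 4.64 TPM (ratio 0.358, 0.279 to 0.461), SH3BGRL at 7.24 and 2.76 TPM and PADI3, a peptidylarginine deiminase, at 5.68 and 2.23 TPM. NGFR, the low-affinity neurotrophin receptor, was the most abundant of this group at 161 and 86.2 TPM (ratio 0.551, 0.527 to 0.576). The clathrin adaptor gene AP1M2 was at 6.39 and 2.78 TPM, the lipid kinase PIP5K1B at 7.13 and 3.41 TPM and monoamine oxidase MAOA at 8.61 and 4.28 TPM. Further such genes were PPP4R4 (9.08 and 4.96 TPM), CTHRC1 (7.37 and 3.96 TPM), ASB9 (8.34 and 4.54 TPM) and the mitochondrial carrier UCP2 (28.5 and 16.5 TPM). In CPM the log2 ratios of PPP4R4 and CTHRC1 were -0.49 and -0.48, within 1.5-fold, and that of CTHRC1 was -0.45 with curated transcripts alone. SERP2, at 6.39 and 2.89 TPM, had a log2 ratio of -0.93 that was 0.05 with curated transcripts alone, so its call rests on predicted transcripts.

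Hypoxia genes were divided in SW480. Of 25 measured targets 15 lay above control, 2 of them by 1.5-fold. Among all measured genes 38.8% lay above control and 0.534% were higher by 1.5-fold. The list median was 0.03, or 0.06 without the 3 on chromosome 3 and 0.07 in CPM. CA9, a cell-surface carbonic anhydrase, was at 2.78 and 9.50 TPM (ratio 3.54, 2.42 to 5.19) and EGLN3, an oxygen-sensing prolyl hydroxylase, at 8.54 and 13.3 TPM (ratio 1.61, 1.35 to 1.91). VEGFA, an angiogenic growth factor, was at 16.1 and 22.6 TPM, the mTORC1 inhibitor DDIT4 at 22.1 and 30.3 TPM, the pyruvate dehydrogenase kinase PDK1 at 9.38 and 12.9 TPM and NDRG1 at 65.8 and 84.3 TPM. HIF1A itself was at 81.5 and 72.9 TPM. Glycolysis genes had 17 of 19 members above control, 0 of them by 1.5-fold, with a median of 0.05. SLC16A3, a lactate exporter, was at 131 and 166 TPM, PGK1 at 209 and 258 TPM and HK2 at 17.8 and 21.4 TPM.

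Genes of cell cycle, signalling and secretion made up the other large ratios above control. CCND2 had a count ratio of 2.51 (2.25 to 2.79), and CDKN1C, the CDK inhibitor p57, was at 14.2 and 22.3 TPM. SLPI, a secreted protease inhibitor, was at 19.5 and 38.3 TPM, the chitinase-like glycoprotein CHI3L1 at 27.2 and 51.3 TPM, the inhibin beta subunit INHBB at 5.28 and 10.5 TPM and METRNL at 8.20 and 15.04 TPM. The transcription factor CEBPA was at 2.79 and 5.29 TPM and the coactivator CITED1 at 10.7 and 18.6 TPM. FSCN1, an actin bundler, was at 52.2 and 83.4 TPM and ABCB1, the P-glycoprotein drug pump, at 7.41 and 12.8 TPM. Its neighbour ABCB4 was at 3.93 and 5.69 TPM. The ABC transporter list as a whole had 14 of 22 members below control, against 61.1% of all measured genes. Its median was -0.02, against -0.04 over all genes. VIL1, the brush border protein villin, was at 7.55 and 12.5 TPM.

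Further genes higher by 1.5-fold were CRMP1, a collapsin response mediator, at 6.79 and 11.96 TPM (ratio 1.82, 1.52 to 2.18), the neuropeptide gene GAL at 281 and 443 TPM and the elongation factor EEF1A2, normally of nerve and muscle, at 124 and 195 TPM. Nerve-associated genes stood on both sides, since the ubiquitin hydrolase UCHL1 (9.10 and 5.31 TPM), the kinase inhibitor CAMK2N2 on chromosome 3 (6.48 and 3.95 TPM) and CACNG6 (6.86 and 3.79 TPM) were lower by 1.5-fold, as was NGFR. Of these, all but CRMP1 and NGFR were named after their values were seen. Of 4 neuroendocrine markers 2 reached 1 TPM, CHGB at 1.297 and 1.66 TPM and SYP at 1.60 and 1.69 TPM, and the list summed to 3.06 and 3.51 TPM. AUTS2, at 2.38 and 5.41 TPM, had a log2 ratio of 0.92 that was 0.25 with curated transcripts alone, and TMEM74B, at 2.90 and 5.88 TPM, one of 0.82 that was 0.33.

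**Figure D5:**
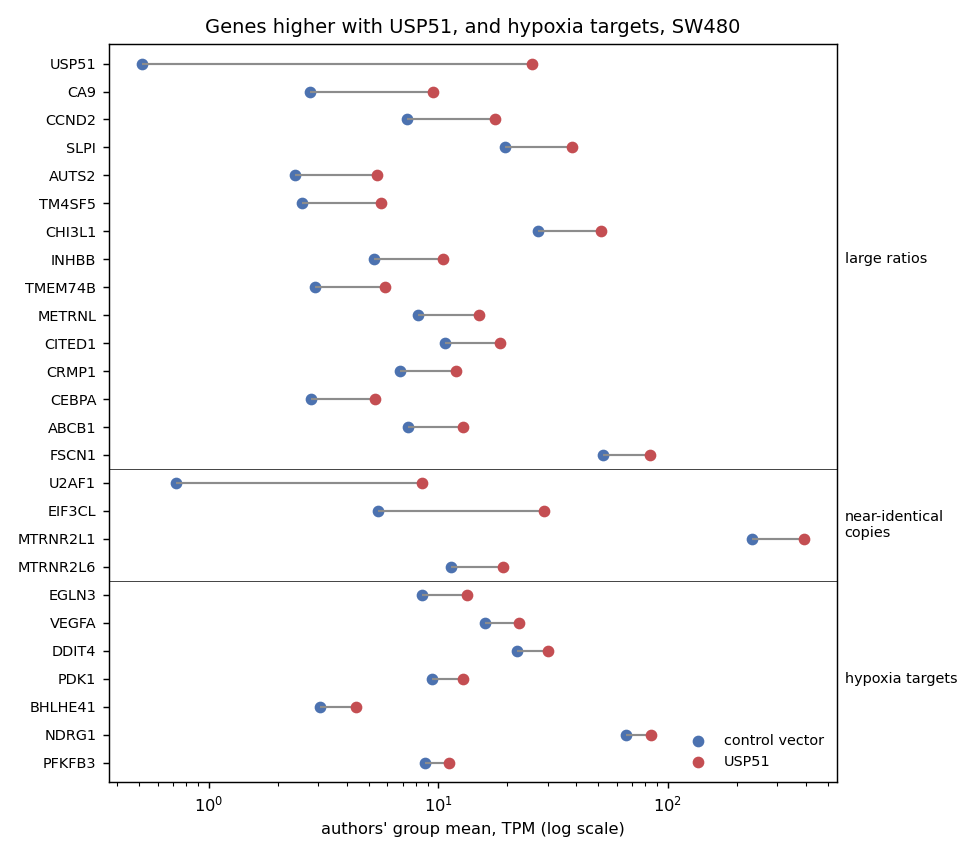
Authors' group means in TPM (horizontal axis, log scale) in SW480 for a selection of the genes with the largest ratios above control, for near-identical copies and for hypoxia targets, with control vector in blue and USP51 in red. USP51 runs from 0.513 to 25.7 TPM and CA9 from 2.78 to 9.50 TPM, and the copies U2AF1 and EIF3CL are uncertain.

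Some of the largest ratios disappeared when near-identical genes were added together. U2AF1 encodes a splicing factor. It was at 0.720 TPM in controls against 8.47 TPM, but with its copy on the same chromosome, listed as LOC102724594, the sum was 403.0 and 399.1 TPM. EIF3CL, a copy of a translation initiation factor gene, was at 5.47 and 28.9 TPM, and with EIF3C the sum was 458.4 and 460.7 TPM. SULT1A4 was at 5.26 and 0.107 TPM and its twin SULT1A3, a catecholamine sulfotransferase, at 9.89 and 15.003 TPM, with sums of 15.2 and 15.1 TPM. In these 3 pairs the differences of the members cancelled, with log2 ratios of the sums of -0.01, 0.01 and 0.00. The MTRNR2L genes, which resemble mitochondrial ribosomal RNA, summed to 15131 and 18874 TPM over 8 genes, of which 7 lay above control. MTRNR2L1 was at 233 and 394 TPM and MTRNR2L6 at 11.4 and 19.3 TPM, and reads of the mitochondrial RNA cannot be told apart from theirs here.

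Sterol, translation and respiration genes lay slightly above control. Cholesterol synthesis had 21 of 24 members above control, 0 of them by 1.5-fold, with a median of 0.13 in TPM. NSDHL was at 77.3 and 90.4 TPM, DHCR7 at 148 and 172 TPM and EBP at 174 and 202 TPM, and all of these are enzymes of the late pathway. Cytosolic ribosomal protein genes had 43 of 51 members above control and a median of 0.06, and RPL24 on chromosome 3 was the member farthest below control. Nuclear-encoded respiratory chain genes had 27 of 40 members above control and a median of 0.05, again with a chromosome 3 gene, UQCRC1 (415 and 366 TPM), as the member with the largest difference.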

How the data were processed

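Total RNA of 12 libraries (3 per group) was extracted with TRIzol and sequenced on a BGISEQ500, per the labels' protocols. TopHat, DESeq 1.32.0 and the build hg38 are named in the submitters' processing notes; what each did, which program counted reads and whether it used strand is not given in the sources used here. Per the file headers, the table holds estimated counts, TPM and FPKM for 84345 RefSeq transcripts. The deposited estimated counts can hold fractions and keep the library depth, the authors' TPM values are scaled to a fixed total, and the authors' FPKM values are scaled to length and depth. The 36 single-library columns match no label by name and were not used. The planned edgeR quasi-likelihood test was therefore left out, and only the authors' group means were compared.

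Transcripts were summed per gene (17672 of 17818 identifiers had a symbol in the RefSeq table of GRCh38.p14). The log2 ratio used a pseudocount of 1 TPM, which understates differences of low genes. Count ratios have 95% Clopper-Pearson intervals given the sum of both counts. They take each group mean, rounded to a whole number, as the count of a single library. They are thus wider than intervals on the counts of 3 libraries together. They hold counting error alone and leave out the spread between replicates. Reads copied by PCR are not separate molecules, which these intervals do not allow for. Only the calculation of these intervals was tested on simulated data, which held counting error alone. Named genes were the 20 largest ratios per direction with at least 5 TPM and an interval excluding 1, the 10 largest TPM differences, up to 4 members of each of 46 lists with at least 5 measured members, and 11 chosen genes; others were named after their values were seen, among them the chromosome 3 genes, GAL, EEF1A2, KRT31 and KRT37. Members, lists and motifs were chosen with earlier results of these data known. A few genes taken by the rule go unreported. The 52 lists held 1194 genes, of which 993 were measured. Python 3.11.15, pandas 2.3.3, scipy 1.17.1 and edgeR 4.0.16 (R 4.3.3, for TMM and RLE factors) were used.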

Additional observations from a re-analysis of the deposited data

How the results depend on the processing

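The count of genes at least 1.5-fold higher was 65 and of genes lower 107. The counts were 150 and 225 with a pseudocount of 0.1 TPM, 14 and 21 with one of 5 TPM, 42 and 68 among genes with at least 5 TPM, and 9 and 15 at 2-fold. The higher count was 99 in CPM with RLE factors, and the lower count was 62 in FPKM and 162 with curated transcripts alone. The chemokine median of -0.52 was -0.41 with a pseudocount of 5 TPM and -0.24 without a filter on low values. The cause of these differences was not tested. The medians of chromosome 3 and of its last stretch, under every alternative of scale, filter, pseudocount and transcript set run, stayed between -0.30 and -0.20 and between -0.43 and -0.32. Leaving out chromosome 3, an alternative chosen after seeing the data, gave 63 higher and 81 lower genes. Of 2056 recomputed log2 ratios of named genes, 1913 moved by less than their counting interval. Among the called genes 1 changed sign, SERP2, from -0.93 to 0.045 with curated transcripts alone, and of 460 recomputed list medians 446 moved by less than 0.1.

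No paired analysis was possible because the columns of the single libraries carry no replicate number or label. For the same reason edgeR tests, DESeq2, a replicate block and leaving out a replicate were not run, and the spread between replicates is unknown. The mean total was 15625249 counts in controls. With each group mean taken as the count of a single library, low genes such as HLA-DRB1 have intervals that include 1. Intervals on the counts of 3 libraries together were not computed.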
